A study of Mus musculus with 36 samples.

Results

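The genes described here are the nuclear-encoded subunits of the mitochondrial respiratory chain and ATP synthase, with the Ndufaf assembly factors of complex I and cytochrome c, in mouse kidney. Members were protein-coding genes whose symbol begins with Nduf, Uqcr, Cox4 to Cox8 or Atp5, or is Sdha, Sdhb, Sdhc, Sdhd, Cyc1 or Cycs, with a mean of at least 1 CPM (reads per gene scaled to library size) over all libraries. Of 95 such genes, 90 reached that mean, among 53715 genes counted. They comprised 36 genes of complex I, 8 complex I assembly factors, 4 genes of complex II, 9 of complex III, Cycs, 15 of complex IV and 17 of ATP synthase (complex V). The 5 genes under the minimum were the complex IV isoforms Cox4i2, Cox6a2, Cox7b2, Cox8b and Cox8c. All 90 members passed the filter on low counts and were tested.

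Messenger RNA of whole kidneys was sequenced from 36 mice, with 4 groups of 9. Mice termed cKOt were Bmal1 lox/lox /Pax8-rtTA/LC1 animals, in which the Pax8 promoter drives a doxycycline-dependent activator (rtTA) in the renal tubule that switches on the Cre recombinase of LC1, which deletes Bmal1 (gene symbol Arntl), an activator at the centre of the circadian clock; controls were Bmal1lox/lox littermates without these transgenes. Mice of all 4 groups drank doxycycline (2 mg/ml) for 2 weeks from an age of 8 weeks. Then, 1 week later, they were injected with streptozotocin (STZ, 50 mg/kg daily for 5 days), a beta-cell toxin used to induce type 1 diabetes, or with the vehicle PBS, with kidney collection at zeitgeber time 9, 8 weeks after the injections ended. Group names join treatment and genotype: PBS-control and PBS-cKOt received vehicle, STZ-control and STZ-cKOt the toxin. Cells outside the tubule keep Bmal1 in cKOt mice, and in whole tissue fewer cells of a type and less RNA per cell cannot be told apart.

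Reads assigned to genes ran from 16.9 to 22.3 M a library (median 20.1 M), while 30.9% to 42.8% had several possible places and went uncounted. The Arntl count did not show the deletion, since it counts the whole gene and was higher in cKOt: it was 1.90 ± 0.41 CPM in PBS-control (SD, n = 9), but 15.2 ± 1.47 CPM in the cKOt mice given PBS and 14.4 ± 1.33 CPM in those given STZ. In STZ-control, 8 libraries lay between 1.18 and 2.64 CPM. The Arntl count of the library labelled STZ-control 2, 13.4 CPM, went against its label. On the first principal component, the main axis of variation among libraries, it scored -13.5. Control libraries ran there from -31.0 to -7.12 and cKOt libraries from 9.12 to 29.2. The library stayed in the fit under its label, and a setting without it is given below. Kidney markers were present: all 12 proximal tubule markers were detected, with a summed level of 44141 ± 4743 CPM in control mice given PBS and 38114 ± 8142 CPM in those given STZ, against 42811 ± 7288 and 29011 ± 4293 CPM in the matching cKOt mice. Of these 12 markers, 4 and 7 fell with the knockout in PBS and STZ mice, beside 12.5% and 10.1% of all tested genes. With STZ, 4 and 6 fell in control and cKOt mice, beside 5.93% and 5.63%. None passed as higher, but the list went both ways. With the knockout 4 and 5 of 12 had positive changes, up to 0.64 on the log2 scale in STZ mice. With STZ 1 and 2 were positive. The part of these markers in the results below was not tested. 4 libraries, STZ-control 7 and 8 and PBS-cKOt 1 and 3, stood apart in the earlier results of these data.

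The respiratory chain passes electrons from NADH (complex I) and succinate (complex II) through ubiquinone, complex III and cytochrome c to oxygen at complex IV. Complexes I, III and IV pump protons across the inner mitochondrial membrane, and ATP synthase uses the gradient to make ATP. The core catalytic subunits of complexes I, III and IV are partly encoded in mitochondrial DNA, whereas all genes described here are nuclear. In the kidney the proximal tubule and the thick ascending limb are rich in mitochondria and depend on them to drive sodium transport.

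Among the members, levels per kilobase of merged exon length (a scale on which genes can be compared) spanned from 643.9 CPM per kb for Atp5b, the catalytic beta subunit of ATP synthase, down to 1.06 for Atp5g2. Atp5a1, the alpha subunit, followed at 612.5, and then came the complex IV subunits Cox6a1 (479.0), Cox6b1 (416.1), Cox8a (398.2) and Cox4i1 (347.8). Median levels per kb were 183.8 in complex II, 183.5 in complex III, 112.5 in complex IV, 107.6 in ATP synthase and 81.8 in complex I. The 8 assembly factors, which help build complex I but are not part of it, had a median of 11.6. Counted per kb of the principal transcript instead, the medians were 270.1, 246.3, 310.1, 280.0, 124.4 and 16.6, so complexes IV and V moved ahead of complexes II and III on that scale, while the assembly factors had the lowest median on both.

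Several of the lowest values touch genes with near-identical copies elsewhere, whose reads cannot be assigned to 1 place. For 16 members over 25% of 50-base windows of their exons also occur in another gene. The search took in both strands, so genes that overlap at the same place count too. Ndufb6 (34.1%) shares windows with Smim27 in this way, and Ndufa13 (28.5%) mostly with Tssk6, each on the other strand. A shared window is therefore not always a copy elsewhere. Atp5g2, a gene of the ring-forming c subunit, shared 87.4% of its windows and stood at 1.06 CPM per kb, and Atp5l, the g subunit, shared 84.8% and stood at 2.14. Cox7c shared 53.0% and Cycs 28.5%, at 9.02 and 7.09 CPM per kb. Levels of these genes are therefore uncertain, and comparisons between groups use only their uniquely placed reads. By contrast Cox6b2 (3.28) and Ndufa4l2 (3.13) shared no window with another gene.

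**Figure D1:**
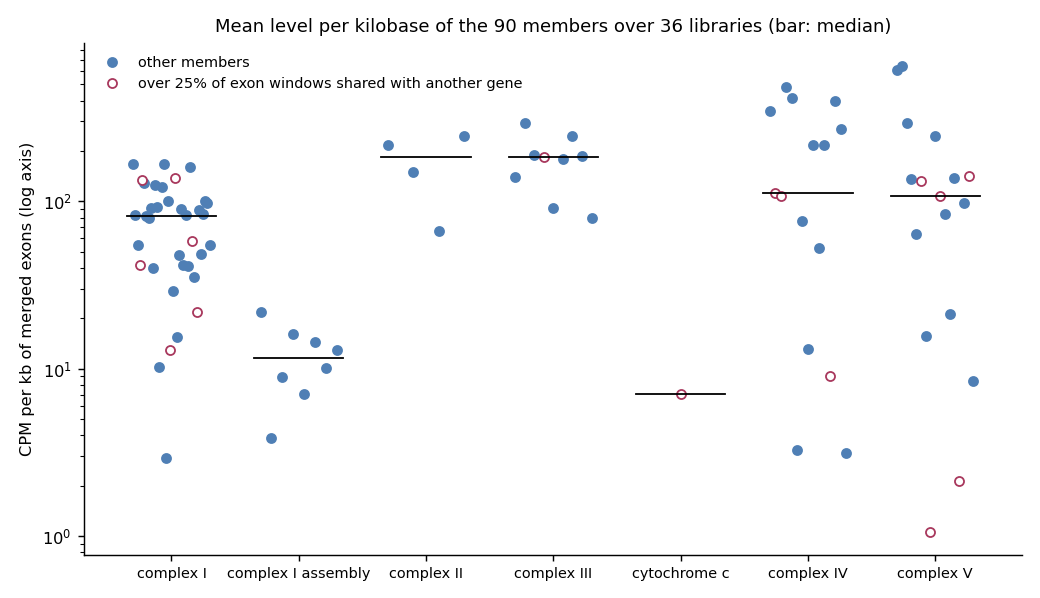
Mean level of each of the 90 members over 36 libraries, in CPM per kb of merged exons on a log axis, by complex; bars are medians and open circles mark the 16 members with over 25% of exon windows shared with another gene. The assembly factors lie toward the low end, from 3.82 to 21.8, with a median of 11.6 beside 81.8 for complex I. Several subunits lie in or under that range, down to Atp5g2 at 1.06.

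Complex IV has subunits with alternative isoforms, some of them typical of muscle, lung or testis. Cox4i1 stood at 510 ± 50.3 CPM in PBS-control (SD, n = 9), and Cox4i2, its oxygen-regulated partner, stood at 0.37 ± 0.20. Cox6a1, the form found in most tissues, stood at 319 ± 47.3 CPM and the muscle form Cox6a2 at 0.87 ± 0.42. Cox7a2 stood at 197 ± 26.8 CPM and the muscle form Cox7a1 at 7.33 (lowest 5.38, highest 8.61). Cox8a stood at 238 ± 33.6 CPM, and Cox8b, expressed in brown fat and muscle, at 1.56 ± 1.90. Cox7a2l, a factor for supercomplexes of complexes III and IV, stood at 76.5 ± 4.49 CPM. None of Cox4i1, Cox6a1, Cox6b1, Cox7a1, Cox7a2, Cox7a2l, Cox8a and Ndufa4 passed the test in any comparison as fitted here, though Cox6b1, Cox7a1 and Cox7a2 passed in some of the settings described further on.

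Cox8b was uneven among mice, and its highest libraries were also high in fat genes. In PBS-control it ranged from 0.16 to 5.68 CPM (median 0.78), and the highest library, PBS-control 8, also had the highest Ucp1 (the uncoupling protein of brown fat) of that group, at 106.7 CPM beside a group median of 2.68. In STZ-control Cox8b had a median of 0.044 CPM and was listed at 0 reads in 4 of 9 libraries. Ucp1 fell with STZ in control mice by 5.04 on the log2 scale (edgeR adjusted p = 0.00066) with all libraries, and without PBS-control 8 the change was -2.71 ± 0.79 (adjusted p = 0.020), with means of 2.82 ± 1.90 CPM with PBS (n = 8) and 0.40 ± 1.07 CPM with STZ (n = 9). The 7 brown fat markers summed to 41.7 to 224.9 CPM with PBS and to 11.1 to 62.7 CPM with STZ in control mice. The sum did not follow Ucp1 closely. STZ-control 5 held the highest STZ sum with Ucp1 at 0 and Cidea, another of the 7, at 0.047 CPM. PBS-control 3 held the lowest PBS sum with Ucp1 at 0.49 CPM. The sum is therefore not a measure of brown fat alone. Without STZ-control 7 and 8, the lowest STZ sum was 41.3 CPM, and without PBS-control 8 the highest PBS sum was 95.1 CPM. Adipoq, a gene of fat in general, was also high where Cox8b was. It stood at 8.46, 9.92 and 9.04 CPM in PBS-control 4, 6 and 8, with 34, 67 and 110 Cox8b reads. In PBS-cKOt 3 and 5 it stood at 8.86 and 7.93 CPM, with 44 and 67 reads. PBS-control 7 had Ucp1 at 5.22 CPM but only 6 Cox8b reads. The Cox8b pattern is therefore not particular to brown fat. The part of these markers in the Cox8b values was not tested.

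Summed over members, group means lay close together. All 90 members summed to 19219 ± 1122 CPM in control mice given PBS and 19814 ± 1759 CPM in those given STZ (SD, n = 9 each). In PBS-cKOt the sum was 19278 ± 2322 CPM, and 19679 ± 1270 CPM when STZ was given. These levels are scaled by TMM factors; as an unscaled share of assigned reads the members took 1.82% ± 0.090, 1.94% ± 0.095, 1.97% ± 0.22 and 2.06% ± 0.13 over PBS-control, STZ-control, then both cKOt groups, the order kept below. Complex I, where NADH enters, summed to 4347 ± 332, 4600 ± 617, 4409 ± 624.8 and 4411 ± 332 CPM. Its spread was widest in STZ-control and PBS-cKOt. Complex II, the smallest complex, summed to 1735 ± 60.9, 1659 ± 76.1, 1784 ± 114 and 1818 ± 65.0 CPM. Complex III summed to 2260 ± 146, 2354 ± 230, 2271 ± 273 and 2317 ± 161 CPM. Complex IV, which reduces oxygen, summed to 2911 ± 324, 3233 ± 632, 2999 ± 561 and 3013 ± 283 CPM. ATP synthase held the largest sum of the complexes. It summed to 7725 ± 336, 7739 ± 419, 7596 ± 818 and 7913 ± 517 CPM. The assembly factors summed to 213 ± 19.2, 204 ± 20.2, 198 ± 24.3 and 184 ± 13.02 CPM. Groups overlapped in every one of these sums, which carry no test since they add chosen genes.

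**Figure D2:**
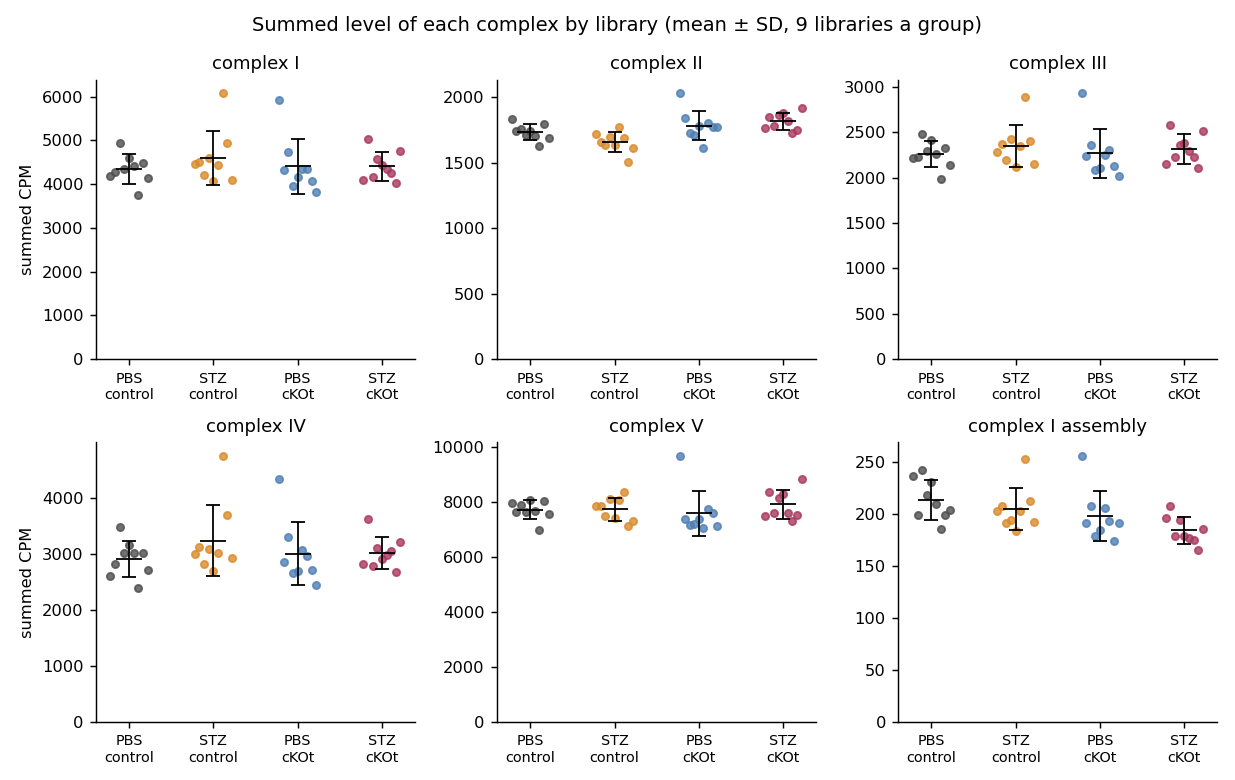
Summed CPM of each complex and of the assembly factors in each library (points), by group, with mean ± SD of 9 libraries. The groups overlap in every panel, and the highest points for complex I are STZ-control 7 at 6085 and PBS-cKOt 1 at 5918 CPM.

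Gene by gene, 12 of the 90 members passed the test in at least 1 of the 4 pairwise comparisons, and 78 passed in none. The test was edgeR's quasi-likelihood F test with Benjamini-Hochberg adjustment over all 15637 tested genes, at an adjusted p under 0.05, and changes are log2 fold changes ± standard error. The comparisons share groups, so their values are given side by side and are not independent. As fitted here, no member other than Cox6b2 changed by 1.5-fold or more in any comparison. The 95% interval of the change lay within 1.5-fold in either direction for 87, 87, 88 and 89 of the 90 members. The order is knockout in PBS mice, knockout in STZ mice, STZ in control mice and STZ in cKOt mice. In the 13 other settings described further on, 2 members passed 1.5-fold with the knockout in PBS mice. With 2 surrogate variables these were Ndufaf4 (-0.72 ± 0.08) and Cycs (-0.63 ± 0.12). Without the 4 libraries that stand apart Ndufaf4 did so again (-0.59 ± 0.09). Among the fits that each left out 1 library, Ndufv3 rose in PBS mice by up to 0.61, which also passes 1.5-fold.

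**Figure D3:**
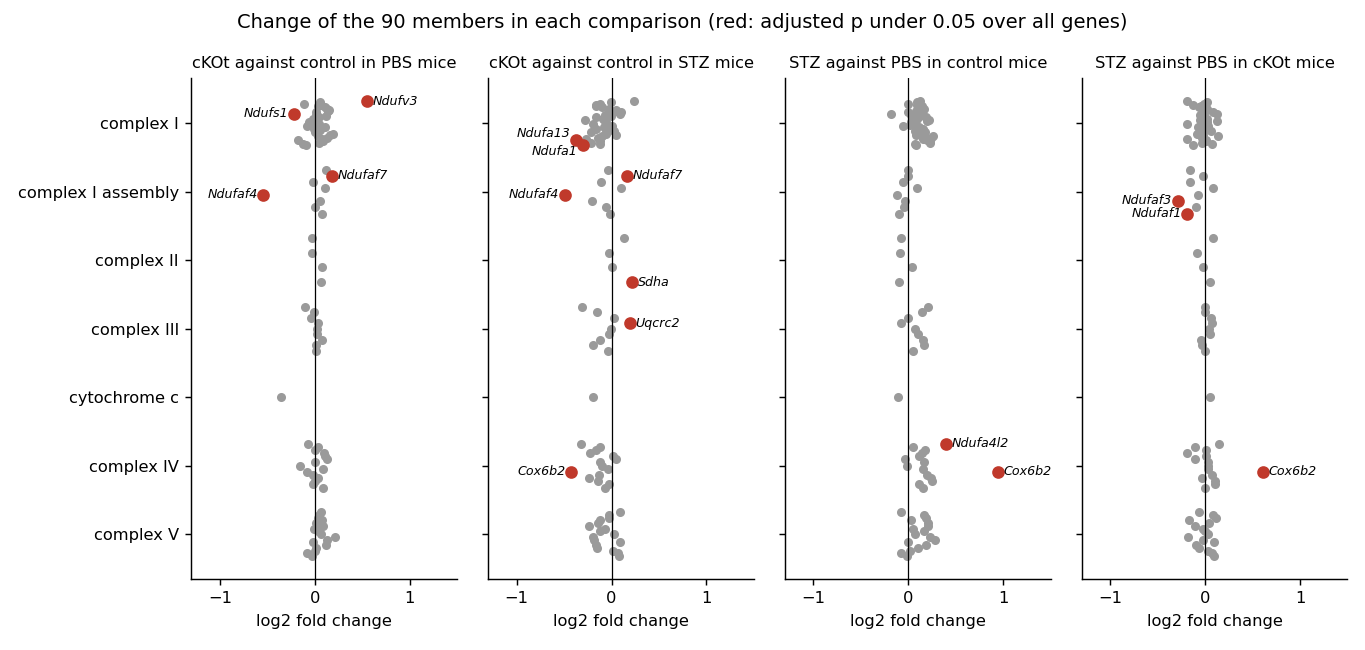
Log2 fold change of each of the 90 members in the 4 pairwise comparisons, by complex; red points with names have an adjusted p under 0.05 over all genes. Most members lie near 0, and Ndufaf4, Ndufv3 and Cox6b2 lie farthest from it.

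The first comparison asks what loss of tubular Bmal1 does in mice without diabetes. In PBS mice, 2 members rose and 2 fell in cKOt, all of them complex I genes: Ndufv3 and the assembly factor Ndufaf7 rose, and the assembly factor Ndufaf4 and the subunit Ndufs1 fell. Over all tested genes 10.9% rose and 12.5% fell, beside 2.22% of members each way. The median change over the 90 members was 0.03 (0.0024 over all tested genes), and 29 of 90 were negative. Without the 4 libraries that stand apart the median was -0.06 and 67 of 90 were negative. No gene of complexes II, III, IV or V was called in this fit. When the same 4 were left out 7 members fell, beside 11.1% of all genes, and Cox7a1 of complex IV was among them.

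Ndufaf4 encodes an early assembly factor of complex I and lies at chr4:24898083-24905001 (GRCm38, GENCODE M21, plus strand). In PBS-control it ranged from 64.8 to 97.2 CPM (median 72.5), and in PBS-cKOt from 38.7 to 63.0 CPM (median 53.7). In STZ-control it ranged from 63.3 to 84.8 CPM (median 68.1), and in STZ-cKOt from 44.4 to 63.1 CPM (median 47.5). All 18 cKOt libraries were therefore below every library of the control group with the same treatment. Ndufaf4 fell by 0.54 ± 0.09 in PBS mice (adjusted p = 6.8e-06). With diabetes it fell by 0.49 ± 0.09 (adjusted p = 3.5e-05). The interaction was 0.05 ± 0.12 (adjusted p = 0.87; 95% interval -0.19 to 0.29). The gene shares no exon window with another gene and overlaps none.

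Ndufv3 encodes a small subunit of the NADH-oxidising arm of complex I (chr17:31520115-31531331, plus strand). It ranged from 115 to 190 CPM in PBS-control (median 145) and from 171 to 290 CPM in PBS-cKOt (median 201), with 7 of 9 cKOt libraries above all controls. It rose by 0.55 ± 0.11 (adjusted p = 0.00016). In STZ-control it ranged from 114 to 251 CPM (median 144) and in STZ-cKOt from 158 to 207 CPM (median 189). All 9 STZ-cKOt libraries were above the STZ-control median, but the difference of 0.24 ± 0.11 did not pass (adjusted p = 0.12). The highest STZ-control value, 251 CPM, was that of library 7. Without the 4 libraries that stand apart the change in STZ mice was 0.41 ± 0.08 and passed (adjusted p = 0.00016), and in PBS mice it was 0.45 ± 0.08. The interaction was -0.31 ± 0.15 (adjusted p = 0.40).

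Ndufaf7, a methyltransferase needed for complex I assembly, ranged from 31.1 to 35.8 CPM in PBS-control (median 32.9) and from 33.7 to 50.7 CPM in PBS-cKOt (median 36.3). It rose by 0.18 ± 0.06 in PBS mice (adjusted p = 0.024), and with STZ given to both genotypes by 0.17 ± 0.06 (adjusted p = 0.046), with all 9 cKOt libraries above the control median each time. Without PBS-cKOt 1, its highest library, the change in PBS mice was 0.12 and did not pass (adjusted p = 0.075). In STZ-control it ranged from 30.2 to 39.7 CPM (median 32.8) and in STZ-cKOt from 34.3 to 41.0 CPM (median 36.5), and there the call was lost in 14 of 36 fits that each left out 1 library (adjusted p up to 0.090).

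Ndufs1, the largest subunit of complex I and a carrier of its iron-sulfur clusters, ranged from 322 to 434 CPM in PBS-control (median 358) and from 262 to 347 CPM in PBS-cKOt (median 313). It fell by 0.22 ± 0.08 in PBS mice (adjusted p = 0.040). In STZ mice the difference was 0.09 ± 0.08 (adjusted p = 0.46), and the interaction, 0.31 ± 0.11, had the smallest p of all members but an adjusted p of 0.36. The call in PBS mice was lost in 11 of 36 fits that each left out 1 library (adjusted p up to 0.10).

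Cycs encodes somatic cytochrome c, the mobile carrier between complexes III and IV. It ranged from 20.1 to 36.5 CPM in PBS-control (median 28.1) and from 14.8 to 35.3 CPM in PBS-cKOt (median 21.3), and 8 of 9 cKOt libraries were below the control median. The difference of -0.36 ± 0.14 missed the threshold (adjusted p = 0.052). It passed without the 4 libraries that stand apart, at -0.52 ± 0.12 (adjusted p = 0.0014). In STZ mice it was -0.20 ± 0.14 (adjusted p = 0.34). Cyc1, the cytochrome c1 of complex III, stood at 297 ± 21.4 CPM in PBS-control and 300.4 ± 31.7 CPM in PBS-cKOt.

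Promoter sequence is shown for the members with the largest changes and for Cycs, to set the motif they share or lack beside the values. The sequences are the 250 bases before the RefSeq start site (GRCm38.p6), 5′ to 3′ on the gene's strand, with the core of the motif for NRF1, a regulator of respiratory genes, in capitals. They cover chr4:24897833-24898082 on the plus strand for Ndufaf4, chr6:50566570-50566819 on the minus strand for Cycs, chr17:31519865-31520114 on the plus strand for Ndufv3 and chr7:4753095-4753344 on the minus strand for Cox6b2.
Ndufaf4: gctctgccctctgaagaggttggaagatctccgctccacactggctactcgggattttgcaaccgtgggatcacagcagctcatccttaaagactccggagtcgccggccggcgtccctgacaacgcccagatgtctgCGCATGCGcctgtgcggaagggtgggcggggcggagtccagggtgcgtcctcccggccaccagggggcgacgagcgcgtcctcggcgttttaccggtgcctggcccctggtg
Cycs: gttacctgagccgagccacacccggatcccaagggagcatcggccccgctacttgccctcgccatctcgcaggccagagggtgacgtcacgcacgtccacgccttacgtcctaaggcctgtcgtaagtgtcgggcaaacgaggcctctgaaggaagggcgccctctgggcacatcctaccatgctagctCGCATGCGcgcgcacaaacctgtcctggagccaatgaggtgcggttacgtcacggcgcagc
Ndufv3: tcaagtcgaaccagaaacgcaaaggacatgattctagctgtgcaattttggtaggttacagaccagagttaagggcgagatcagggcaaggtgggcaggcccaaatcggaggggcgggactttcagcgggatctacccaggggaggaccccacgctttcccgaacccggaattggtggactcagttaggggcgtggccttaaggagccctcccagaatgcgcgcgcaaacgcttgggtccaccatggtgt
Cox6b2: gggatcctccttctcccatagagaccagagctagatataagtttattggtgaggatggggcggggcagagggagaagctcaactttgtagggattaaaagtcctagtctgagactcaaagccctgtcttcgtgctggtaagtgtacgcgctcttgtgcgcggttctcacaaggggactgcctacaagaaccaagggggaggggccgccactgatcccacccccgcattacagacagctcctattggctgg
Ndufaf4 and Cycs hold the NRF1 core, CGCATGCG, and Ndufv3 and Cox6b2 do not hold these letters. The window searched on both strands ran from 250 bases before to 50 after the start, and 75 of the 90 members had an entry in the RefSeq table.

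The NRF1 core was found in 12 of 75 members (16.0%) and in 2.77% of 17492 protein-coding genes. The carriers were Atp5g2, Atp5j, Atp5k, Atp5l, Cox6a1, Cycs, Ndufa11, Ndufa8, Ndufaf4, Ndufaf5, Uqcr11 and Uqcrc1. Of these 12, only Ndufaf4 passed the test between genotypes in the fit as reported, in PBS mice and in STZ mice. Cycs, close to the threshold there, passed in PBS mice in 9 of 13 other settings, and Ndufa8 fell in both with the length slope described below as a covariate. With 2 surrogate variables, a setting described further on, Ndufa8 again fell in both. Atp5j then fell in PBS mice (-0.24 ± 0.08, adjusted p = 0.019). Many members without the core fell in those settings as well, as given below. In the reported fit 3 of the 12 carriers were negative with the knockout in PBS mice (median 0.03). In STZ mice 11 were negative (median -0.17). Of all 90 members, 29 and 67 were negative in the same comparisons. The GABPA motif CCGGAAG was in 18 members (24.0%, 12.9% of genes). The E-box CACGTG, the letters that BMAL1 and its partner CLOCK bind, was in 6 members (8.00%, 8.91% of genes), namely Atp5f1, Atp5g1, Atp5g3, Atp5l, Ndufa7 and Ndufv1. None of those 6 was called in any comparison as reported. With the slope as a covariate Ndufv1 fell in PBS mice (-0.16 ± 0.05, adjusted p = 0.013), and without the 4 libraries that stand apart Atp5f1 rose with STZ in cKOt mice (0.16 ± 0.05, adjusted p = 0.044). Atp5g3 rose with the knockout in STZ mice with 2 surrogate variables (0.11 ± 0.04, adjusted p = 0.046). In the reported fit the changes of the 6 with the knockout ranged from -0.11 to 0.19 in PBS mice and from -0.18 to 0.09 in STZ mice. The motif of the ERR receptors, TCAAGGTCA, was in Atp5g3 and Sdhd (2.67%, 0.377% of genes), and neither was called in the reported fit. Both rose with the knockout in STZ mice when 2 surrogate variables were fitted. The REV-ERB and ROR core, TAGGTCA, was in Cox7b, Ndufa11 and Ndufb10 (4.00%, 2.70% of genes), and the D-box, TTATGTAA or TTACGTAA, in Cox7b (1.33%, 1.19% of genes). A match here describes the letters only.

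The second comparison asks the same of mice with diabetes. In STZ mice 3 members rose in cKOt (Sdha, Uqcrc2, Ndufaf7) and 4 fell (Ndufaf4, Ndufa13, Cox6b2, Ndufa1). Over all tested genes 9.52% rose and 10.1% fell, beside 3.33% and 4.44% of members. The median change over members was -0.07 (-0.0083 over all tested genes), and 67 of 90 were negative. Without the 4 libraries that stand apart the median was 0.02 and 39 of 90 were negative.

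Sdha, the flavoprotein that oxidises succinate in complex II and the citric acid cycle (chr13:74322254-74350280, minus strand), ranged from 662 to 916 CPM in STZ-control (median 845) and from 891 to 1006 CPM in STZ-cKOt (median 963). It rose by 0.22 ± 0.05 (adjusted p = 0.0027), and 7 of 9 STZ-cKOt libraries were above all STZ-control libraries. In PBS mice the difference was 0.07 ± 0.05 (adjusted p = 0.40), and the interaction was 0.15 ± 0.08 (adjusted p = 0.41). The other subunits of complex II were not called as fitted here. Sdhb stood at 337 ± 39.9 CPM in STZ-control and 339 ± 20.6 in STZ-cKOt. Sdhc stood at 211 ± 12.4 and 207 ± 15.5, and Sdhd at 288 ± 17.5 and 315 ± 24.2 (SD, n = 9). Sdhd did rise in STZ mice without the 4 libraries that stand apart (0.14 ± 0.05, adjusted p = 0.037). It also rose there with the length slope described below as a covariate (0.16 ± 0.04, adjusted p = 0.0069).

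Uqcrc2, a core protein of complex III (chr7:120635176-120659524, plus strand), ranged from 362 to 472 CPM in STZ-control (median 428) and from 437 to 528 CPM in STZ-cKOt (median 483). It rose by 0.19 ± 0.05 (adjusted p = 0.0051), with 6 of 9 libraries above all STZ-control libraries. In PBS mice its difference was 0.04 ± 0.05 (adjusted p = 0.63), and the interaction was 0.15 ± 0.07 (adjusted p = 0.38). Pdzd9 overlaps it on the other strand, and 24.8% of its exon windows occur there too. Its partner core protein Uqcrc1 stood at 385 ± 28.6 CPM in STZ-control and 383 ± 32.8 in STZ-cKOt, and the Rieske iron-sulfur protein Uqcrfs1 at 336 ± 28.6 and 342 ± 27.9 (neither called).

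Ndufa13, also known as the cell-death regulator GRIM-19, ranged from 157 to 308 CPM in STZ-control (median 180) and from 115 to 176 CPM in STZ-cKOt (median 155). It fell by 0.37 ± 0.11 (adjusted p = 0.016), and 5 of 9 cKOt libraries were below all STZ-control libraries. The highest value, 308 CPM, was that of STZ-control 7; without that library the difference was -0.26 (adjusted p = 0.063), and without all 4 that stand apart -0.19 (adjusted p = 0.11). With the length slope described below as a covariate it was -0.24 ± 0.04 (adjusted p = 4.6e-05). The gene overlaps Yjefn3 on the same strand and Tssk6 on the other, and 28.5% of its exon windows occur in other genes. Ndufa1, an X-linked membrane subunit needed for assembly, ranged from 61.5 to 112 CPM in STZ-control (median 71.9) and from 55.9 to 75.9 CPM in STZ-cKOt (median 61.3). It fell by 0.30 ± 0.11 (adjusted p = 0.041), and without STZ-control 7 the difference was -0.21 (adjusted p = 0.13), while with the slope as a covariate it was -0.18 ± 0.04 (adjusted p = 0.0020). It was -0.15 ± 0.08 without the 4 libraries (adjusted p = 0.21). The Ndufa1 call was lost in 8 of 36 fits that each left out 1 library and in 3 of 13 other settings, and that of Ndufa13 in 1 of 36 and 1 of 13. In PBS mice neither gene passed as fitted here. Without the 4 libraries Ndufa13 fell there too, by 0.28 ± 0.09 (adjusted p = 0.015), and Ndufa1 did not pass. With the slope as a covariate both fell in PBS mice, by 0.31 ± 0.04 and 0.21 ± 0.04 (adjusted p = 3.8e-07 and 0.00037).

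The third comparison asks what diabetes does in mice with an intact clock. With STZ, 2 members rose in control mice, Cox6b2 and Ndufa4l2, both isoforms of complex IV subunits with low counts, and 0 fell by edgeR's test (0 by DESeq2 as well). Of all tested genes 6.34% rose and 5.93% fell, beside 2.22% of members that rose. At an unadjusted p under 0.05 stood 10 members. The median change over members was 0.10 (0.0050 over all genes), and without the 4 libraries that stand apart it was 0.0082.

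Cox6b2, best known as the testis form of the Cox6b subunit that joins complex IV monomers (chr7:4751792-4753094, minus strand), ranged from 1.91 to 3.67 CPM in PBS-control (median 2.62) and from 4.07 to 7.30 CPM in STZ-control (median 5.08). In PBS-cKOt it ranged from 1.71 to 3.99 CPM (median 2.66) and in STZ-cKOt from 2.87 to 5.52 CPM (median 3.82). Every STZ-control library was above every PBS-control library, and every STZ-cKOt library was above the PBS-cKOt median. These levels rest on 33 to 124 reads a library. Cox6b2 rose with STZ by 0.95 ± 0.14 in control mice (adjusted p = 1.3e-05) and by 0.61 ± 0.14 in cKOt mice (adjusted p = 0.0039).

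Between genotypes, Cox6b2 did not pass in PBS mice, with a difference of -0.09 ± 0.15 (adjusted p = 0.71; 95% interval -0.38 to 0.20), and fell in STZ-cKOt against STZ-control by 0.42 ± 0.14 (adjusted p = 0.024). That last call was lost without STZ-control 7 (-0.36, adjusted p = 0.062), STZ-control 8 (-0.37, adjusted p = 0.059) or STZ-cKOt 8 (-0.37, adjusted p = 0.055), and without the 4 that stand apart the difference was -0.29 ± 0.13 (adjusted p = 0.11). The interaction, -0.34 ± 0.20, did not pass (adjusted p = 0.45), so the STZ effects were not shown to differ. Its widespread partner Cox6b1 stood at 282 ± 36.9 CPM with PBS and 323 ± 69.8 CPM with STZ in control mice, and was not called.

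Ndufa4l2 is a hypoxia-induced relative of Ndufa4, a subunit of complex IV. It ranged from 2.35 to 4.29 CPM in PBS-control (median 3.20) and from 3.45 to 5.29 CPM in STZ-control (median 4.09), and rose by 0.40 ± 0.14 (adjusted p = 0.048). All 9 STZ-control libraries were above the PBS-control median. The call was marginal, being lost in 22 of 36 fits that left out 1 library (adjusted p up to 0.11), and without the 4 libraries that stand apart the change was 0.32 ± 0.14 (adjusted p = 0.16). In cKOt mice the STZ difference was 0.15 ± 0.14 (adjusted p = 0.56). Of markers of mural cells and fibroblasts 1 of 6 rose with STZ in control mice, beside 6.34% of all genes, and 3 of 6 rose in cKOt mice, where Ndufa4l2 did not pass. In control mice 3 of 4 markers of the distal convoluted tubule and 2 of 5 of macrophages rose too. The mural list summed to 179.8 to 267.9 CPM with PBS and 230.9 to 282.7 CPM with STZ in control mice. The part of these markers in the rise was not tested.

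The fourth comparison asks what diabetes does without tubular Bmal1. In cKOt mice 1 member rose with STZ (Cox6b2) and 2 fell, the assembly factors Ndufaf3 and Ndufaf1. Over all tested genes 6% rose and 5.63% fell, beside 1.11% and 2.22% of members. The median over members was -0.0052 (-0.0015 over all genes), and 0.10 without the 4 libraries that stand apart. Ndufaf3, which works with Ndufaf4 early in assembly, ranged from 14.003 to 22.9 CPM in PBS-cKOt (median 16.9) and from 11.1 to 17.5 CPM in STZ-cKOt (median 14.6), and fell by 0.29 ± 0.10 (adjusted p = 0.040). Ndufaf1, a chaperone of the membrane arm, ranged from 32.4 to 45.7 CPM in PBS-cKOt (median 34.2) and from 27.2 to 35.4 CPM in STZ-cKOt (median 30.5), and fell by 0.19 ± 0.06 (adjusted p = 0.048). Without PBS-cKOt 1 the differences were -0.23 (adjusted p = 0.098) and -0.13 (adjusted p = 0.13), and without the 4 that stand apart -0.18 (adjusted p = 0.16) and -0.13 (adjusted p = 0.11). Leaving out 1 library lost the Ndufaf3 call in 9 of 36 fits and the Ndufaf1 call in 24 of 36, and 5 and 7 of 13 other settings lost them.

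**Figure D4:**
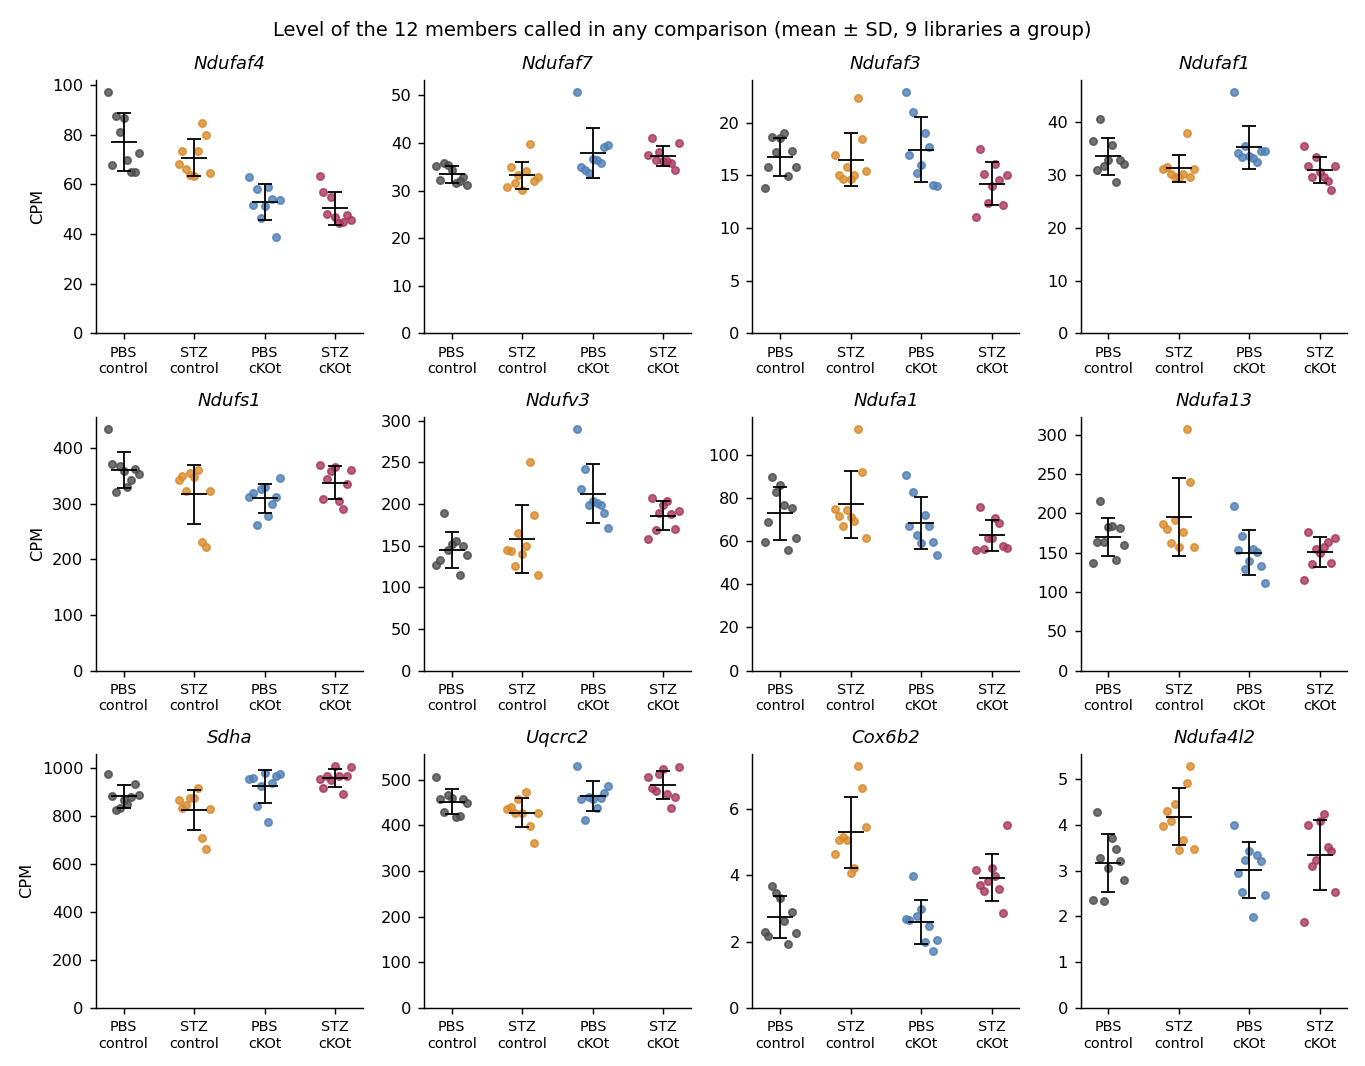
CPM of the 12 members called in any comparison, by group, with 9 libraries as points and mean ± SD as bars. Ndufaf4 is lower in both cKOt groups without overlap with the matched controls, and Cox6b2 is higher in STZ-control (4.07 to 7.30) than in PBS-control (1.91 to 3.67).

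The interaction asks whether the effect of STZ depended on genotype. No member passed: edgeR called 0 higher and 0 lower among 90, 6 had an unadjusted p under 0.05, and DESeq2 also called 0. Over all tested genes 0% were called higher and 0.0448% lower. The 5 members with the smallest p were Ndufs1 (0.31), Cox7c (-0.33), Uqcrc2 (0.15), Atp5g2 (-0.41) and Sdhd (0.16), with adjusted p from 0.36 to 0.40. The median over members was -0.12 (-0.0073 over all genes) and 74 of 90 were negative. Without the 4 libraries that stand apart the median was 0.08 and 15 of 90 were negative, so the lean of the whole set changed sign with them.

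Levels of most members were high or low together from library to library. For each library a length slope was fitted, the change per doubling of exon length in a gene's log2 level once its average over libraries is subtracted; a negative slope means that short genes read high. Members are short: their median merged exon length was 1737 bases, beside 4141 for all tested genes. PBS-cKOt 1 (slope -0.17) and STZ-control 7 (-0.14) had the lowest slopes, and in them the median member stood 0.48 and 0.55 above its mean on the log2 scale. Shorter and longer members, split at the median length, stood 0.64 and 0.44 above in STZ-control 7 but 0.48 and 0.47 in PBS-cKOt 1. The 6 libraries with the lowest slopes were also the 6 with the highest medians. At the other end PBS-control 7, with the highest slope (0.091), had the lowest median (-0.26). The groups did not stand apart in slope, with means of 0.015 ± 0.049 (PBS) and -0.014 ± 0.061 (STZ) in control mice, and of -0.015 ± 0.071 (PBS) and 0.013 ± 0.044 (STZ) in cKOt mice (SD, n = 9).

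**Figure D5:**
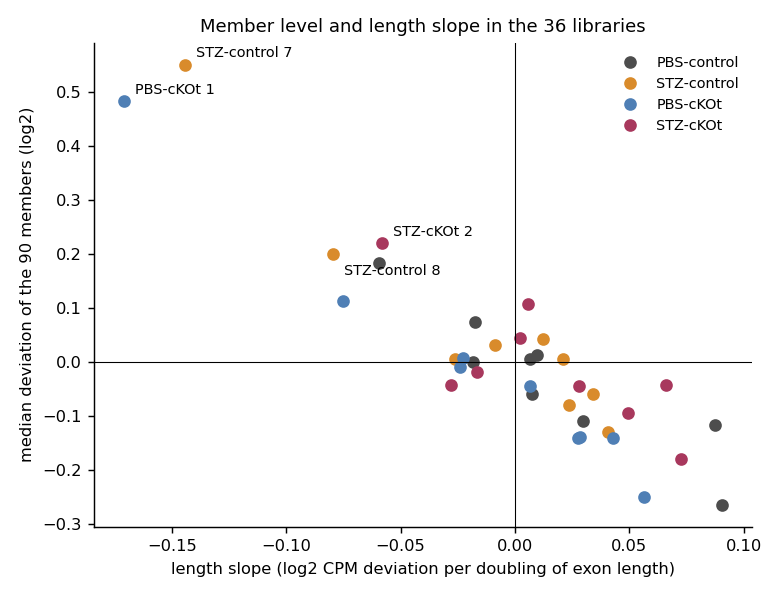
Median deviation of the 90 members from their mean over libraries (log2) against the length slope of each of the 36 libraries, coloured by group. PBS-cKOt 1 and STZ-control 7 lie at the upper left, and PBS-control 7 at the lower right.

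When the slope entered the fit as a covariate, more members passed. In PBS mice 2 rose and 15 fell in cKOt (12.4% and 14.7% of all genes), the fallers being Ndufaf4, Cycs, Ndufa1, Ndufa8, Ndufa10, Ndufa13, Ndufb5, Ndufb7, Ndufb10, Ndufv1, Uqcr10, Uqcrh, Uqcrq, Cox6b1 and Cox7a1. In STZ mice 8 rose and 8 fell (12.3% and 12.4% of all genes). Ndufv3 then passed in both (0.44 ± 0.05 and 0.37 ± 0.05), and Cycs fell in PBS mice by 0.48 ± 0.11 (adjusted p = 0.0011). With STZ, 1 rose and 1 fell in control mice (7.42% and 8.44% of all genes). In cKOt mice 12 rose and 1 fell (7.4% and 7.16% of all genes), so the risers there were 13.3% of members. They were 4 genes of complex I, 5 of complex IV (Cox5a, Cox5b, Cox6b1, Cox6b2, Cox7a2) and 3 of ATP synthase. With 2 surrogate variables 6 of complex IV rose there, and without the 4 libraries that stand apart 2 did. The calls of Ndufaf4, Ndufv3 in PBS mice, Sdha, Uqcrc2 and of Cox6b2 with STZ held in this fit and in each of the 12 other settings.

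The other genes of the pathway were taken from lists of assembly factors, regulators, carriers, mitochondrial ribosomal proteins and mitochondrially encoded subunits. Of 41 tested assembly and maturation factors of complexes I to V (other than the Ndufaf genes), 2 rose and 5 fell with the knockout in PBS mice, 2 rose and 4 fell with it in STZ mice, 1 rose and 4 fell with STZ in control mice, and 3 fell with STZ in cKOt mice. These calls were 17.1%, 14.6%, 12.2% and 7.32% of the 41, beside 23.4%, 19.6%, 12.3% and 11.6% of all tested genes called in the same comparisons. Uqcc1, a factor of complex III assembly, fell with the knockout by 0.25 ± 0.05 in PBS mice (adjusted p = 7.8e-05), and with diabetes by 0.14 ± 0.05 (adjusted p = 0.029). Coa6, a copper-delivery factor of complex IV, fell by 0.40 ± 0.09 and 0.38 ± 0.09 (adjusted p = 0.0012 and 0.0029). Nubpl, an iron-sulfur cluster factor of complex I, rose by 0.21 ± 0.06 and 0.38 ± 0.06 (adjusted p = 0.011 and 1.0e-05). With STZ, Acad9, an assembly factor of complex I, fell by 0.33 ± 0.07 in control mice (adjusted p = 0.0016) and by 0.26 ± 0.07 in cKOt mice (adjusted p = 0.013).

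Of 15 regulators of mitochondrial biogenesis, 2 fell with the knockout in PBS mice, and 3 rose and 2 fell with it in STZ mice; called were 13.3% and 33.3% of them, beside 23.4% and 19.6% of all genes. Ppargc1b, a coactivator of respiratory genes, fell by 0.49 ± 0.13 and 0.47 ± 0.13 (adjusted p = 0.0034 and 0.0074), and the receptor Esrra by 0.25 ± 0.07 and 0.21 ± 0.07 (adjusted p = 0.0053 and 0.029). Ppargc1a, the relative of Ppargc1b, rose in STZ mice by 0.27 ± 0.09 (adjusted p = 0.023), as did the corepressor Nrip1 by 0.40 ± 0.13 (adjusted p = 0.019). With STZ, none of the 15 passed in control mice by edgeR (6 at an unadjusted p under 0.05) and Esrrb alone rose in cKOt mice, by 0.31 ± 0.09 (adjusted p = 0.017). The calls of Esrra (adjusted p = 0.073) and Ppargc1a (adjusted p = 0.060) in STZ mice and of Esrrb with STZ in cKOt mice (adjusted p = 0.051) were lost without the 4 libraries that stand apart. Nrf1, Gabpa and Tfam, which act on nuclear and mitochondrial respiratory genes, passed in no comparison.

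Of 77 tested mitochondrial ribosomal proteins, 7 rose and 0 fell with the knockout in PBS mice, and 6 rose and 3 fell in STZ mice. The risers were 9.09% and 7.79% of them, beside 10.9% and 9.52% of all genes. Leaving out the 4 libraries, 5 rose and 1 fell in PBS mice, beside 10.9% and 11.1% of all genes. In STZ mice 13 rose and 0 fell, beside 10.2% and 10%. The risers in STZ mice were then a larger share than among all genes, unlike in the reported fit. Mrps35 rose by 0.39 ± 0.06 in both (adjusted p = 9.9e-06 and 1.0e-05), and Mrpl9 by 0.22 ± 0.05 and 0.19 ± 0.05 (adjusted p = 0.0021 and 0.0087). With STZ, 1 fell in control mice and 0 passed in cKOt mice. Of 6 carriers and porins, Slc25a5, an ADP/ATP carrier, fell in PBS-cKOt by 0.20 ± 0.05 (adjusted p = 0.0059), and no other call was made.

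Of 13 listed mitochondrially encoded subunits, 7 were tested. With the knockout 3 of 7 fell in PBS mice and 5 of 7 in STZ mice, with 0 rising, beside 12.5% and 10.1% of all genes that fell. Without the 4 libraries that stand apart 6 and 2 of 7 fell, beside 11.1% and 10% of all genes. mt-Nd1 fell by 0.33 ± 0.11 and 0.48 ± 0.11 (adjusted p = 0.024 and 0.0015), and without the 4 libraries by 0.39 ± 0.08 and 0.28 ± 0.08 (adjusted p = 0.00078 and 0.014). mt-Nd2 fell by 0.43 ± 0.11 and 0.40 ± 0.11 (adjusted p = 0.0031 and 0.0064). mt-Cytb passed in STZ mice, at -0.33 ± 0.12 (adjusted p = 0.039; without the 4 libraries -0.11 ± 0.09, adjusted p = 0.40), and mt-Co1 in neither, at -0.24 ± 0.11 and -0.29 ± 0.11 (adjusted p = 0.10 and 0.054), though leaving out the 4 libraries it passed in PBS mice (-0.26 ± 0.08, adjusted p = 0.022). All 7 fitted changes were negative in both. With STZ none of the 7 passed. Mitochondrial transcripts made up 16.4% ± 2.11 of the assigned reads of control mice given PBS and 18.8% ± 3.76 of those given STZ; in cKOt mice the shares were 14.4% ± 1.83 and 15.8% ± 1.71. STZ-control 7 and 8 had shares of 25.6% and 24.7%, and the other 7 of that group ran from 15.3% to 19.1% (mean 17.03% ± 1.32).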

How the data were processed

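Members and lists were chosen with earlier results of these data known. The tools named, per the submitters' processing notes, are cutadapt 1.8, STAR 2.5.3a and HTSeq 0.9.1, with counting options and annotation release not given in the sources used here. Raw counts per gene and library were what the authors deposited. Symbols were taken from GENCODE M21 (53620 of 53715 identifiers). Genes were filtered with filterByExpr and scaled by TMM, and 1 model with 4 group means (32 residual degrees of freedom) was fitted to 36 libraries with edgeR 4.0.16 (quasi-likelihood F test, Benjamini-Hochberg over 15637 genes). Levels are CPM on TMM library sizes. Named were up to 12 members per direction and comparison by smallest p among those called, 5 in the interaction, the isoform pairs, complex II and core subunits. Alternatives used DESeq2 1.42.0, limma 3.58.1 and sva 3.50.0, a length slope, left-out libraries and a replicate block. The test was checked on simulated data. Nothing in the labels says more about replicates than that they are separate samples, so p-values measure the spread between these samples.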

Additional observations from a re-analysis of the deposited data

Results flagged for a closer look

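Among 34 genes examined in 4 groups of 9 libraries (136 sets of 9 values), 26 held a highest or lowest library whose gap to its neighbour exceeded 0.493 of the whole range, Dixon's 95% critical value; chance flags about 1 in 20. Most were the highest value of 1 of 2 libraries. STZ-control 7 stood far above the other 8 for Atp5g3 (720 CPM), Cox6b1 (491 CPM), Cox7a1 (12.7 CPM), Cox7a2 (319 CPM), Cox8a (380 CPM), Ndufa4 (538 CPM) and Sdhb (429 CPM). The same library stood apart for the assembly factors Ndufaf1 (37.8 CPM), Ndufaf3 (22.3 CPM) and Ndufaf7 (39.7 CPM).

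PBS-cKOt 1 stood far above the rest of its group for Atp5g3 (725 CPM), Cox6b1 (411 CPM), Cox7a1 (10.1 CPM), Cox7a2 (299 CPM), Cox7a2l (112 CPM), Cycs (35.3 CPM), Ndufa4 (585 CPM) and Uqcrfs1 (425 CPM). It did so too for Sdhb (457 CPM) and Sdhd (373 CPM), and for Ndufaf1 (45.7 CPM) and Ndufaf7 (50.7 CPM). These 2 libraries also had the lowest length slopes of all 36.

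Single high values were Cox7c in PBS-control 3 (13.1 CPM), Ndufa4 in STZ-cKOt 2 (431 CPM), Ndufs1 in PBS-control 1 (434 CPM) and Cox8b in STZ-control 1 (0.722 CPM).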

How the results depend on the processing

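The calls of Ndufaf4 in both knockout comparisons, Ndufv3 in PBS mice, Sdha and Uqcrc2 in STZ mice and Cox6b2 with STZ held in all 13 settings and in all 36 fits that left out 1 library, and none of the 23 changes of single members recomputed in these fits changed sign. The median over members did change sign without the 4 libraries that stand apart. With the knockout it went from 0.03 to -0.06 in PBS mice and from -0.07 to 0.02 in STZ mice. It went from -0.0052 to 0.10 with STZ in cKOt mice and from -0.12 to 0.08 in the interaction. These 4 medians also changed sign with surrogate variables and with the slope. The 4 libraries had the lowest length slopes of all 36, so leaving them out and fitting the slope are not separate checks. With the knockout in PBS mice, the members that fell numbered 2 as reported, 6 with limma's voom and quality weights, 1 without the filter, 21 with 2 surrogate variables, 15 with the length slope and 7 without the 4 libraries. Of all tested genes 12.5% fell as reported, and 15%, 4.7%, 11.2%, 14.7% and 11.1% under those 5 settings. In STZ mice those that rose numbered 3 as reported and 9, 8 and 6 under the last 3 settings, and those that fell 4 as reported, 8 with the slope and 1 without the 4 libraries, while of all genes 9.52% rose as reported and 12.9%, 12.3% and 10.2% under those 3, and 10.1% fell as reported, 12.4% with the slope and 10% without the 4. With STZ in control mice, 1 rose (Cox6b2) under voom, without the filter, with surrogate variables, with the slope, without the 4 libraries, without the library labelled STZ-control 2 and without PBS-control 8, and 7 and 1 fell with surrogate variables and the slope (8.28% and 8.44% of all genes). With STZ in cKOt mice, 12, 12 and 7 rose with surrogate variables, the slope and without the 4 libraries (8.65%, 7.4% and 5.92% of all genes). There 0 fell without the filter, with only the groups compared and without the 4 libraries, and 1 fell under voom, surrogate variables, the slope, without STZ-control 2 and without PBS-control 8. The cause was not tested.

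Leaving out each library in turn gave 1 to 2 higher and 1 to 3 lower with the knockout in PBS mice, 2 to 5 and 1 to 6 in STZ mice, 1 to 2 and 0 with STZ in control mice, and 1 to 2 and 0 to 2 in cKOt mice. With the replicate number as a block, 2 rose and 3 fell, 2 rose and 3 fell, 2 rose and 0 fell, and 1 rose and 1 fell, in the same order. The numbers do not pair the libraries: over 54 same-numbered pairs r ran from -0.247 to 0.396, and 7 libraries correlated best with their own number. Cox6b2 and Ndufa4l2 rest on few reads, which limits their precision.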
